A study of Mus musculus with 278 samples.

Results

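Low-complexity keratinocytes are cultured mouse skin cells in which few genes were detected. They were selected on the number of genes with TPM over 1 (a read count corrected for gene length and made relative to all reads of the cell). Cells of the AG series with fewer than 5500 such genes were called low-complexity and the others had 5500 or more. This gave 25 low-complexity cells among 130 AG cells, out of 278 labelled cells in the series. Adult dorsal skin keratinocytes, 9 wild-type cells to 1 K14ΔNβ-cateninER cell, were grown together and received 200 nM 4-hydroxy-tamoxifen (4-OHT) for 24 h, or DMSO as the untreated control. K14 is the keratin 14 promoter, so the transgene is driven in basal keratinocytes, and 4-OHT switches the stabilised β-catenin fusion on. Single cells were caught on a C1 microfluidic chip, with doublets and dead cells left out by imaging, and the transgenic cells were not told apart from the wild-type ones here. Each treatment set (66 untreated and 64 treated AG cells) is 1 sample, so everything below is a description with no test between groups. The members were chosen from the same values, and a difference that follows from few genes being detected is not a finding in itself.

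Basal keratinocytes hold on to the basement membrane, make keratins 5 and 14 and divide, and they turn on keratins 1 and 10 when they leave the basal layer. In single-cell libraries the number of genes detected follows both how much RNA a cell holds and how much of it was captured, copied and sequenced. Stressed cells switch on immediate early, heat shock or unfolded protein genes, dying cells lose cytoplasmic RNA, and differentiating cells gain suprabasal genes.

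The untreated set held 16 low-complexity cells of 66, or 24.2% (exact Clopper-Pearson 95% interval 14.5 to 36.4%), and the treated set 9 of 64, or 14.1% (6.64 to 25.02%). These intervals overlap and cover the counting of cells only. Among library numbers up to 96 the shares were 27.03% (10 of 37) and 8.11% (3 of 37). Among library numbers from 97 they were 20.7% (6 of 29) and 22.2% (6 of 27), so the lower share in treated cells was seen only in the lower-numbered libraries. Just inside the threshold lay cells with 5442 and 5444 genes, and just outside it cells with 5618 and 5623. The untreated low-complexity cells ran from 3719 to 5442 genes (median 4776) and the treated ones from 2538 to 5444 (median 4380), against medians of 6374 and 6515 in the other cells.

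The deposited TPM values hold the read counts behind them. Within a cell every value is a whole number of reads times a step set by the gene, and ratios between cells gave that step. For 11471 genes, 100% of the values were whole numbers within 0.001 in every AG cell but 1. That cell, an untreated one of the other cells, did not resolve to whole reads and was left out of every read count. Reads per low-complexity cell had a median of 187925 (65310 to 1444608), against 606011 (178295 to 1500986) in the other cells. Most low-complexity cells were thus shallow, but the ranges overlapped. In 10 cells the total lay below that of every other cell, 9 cells had 179057 to 302618 reads and 6 had over 500000. All 9 cells of the middle range were untreated. Across the 25 cells the number of genes went up with reads (Spearman's rho 0.55), while across the other cells it did not (rho −0.13).

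Genes were also counted at equal numbers of reads, which describes the cells the threshold had chosen and is no separate evidence. The number of genes expected with at least 1 read at 60000 reads per cell was 3861 in low-complexity cells (median, 1818 to 5119) and 5097 in the others (4301 to 5895). Of the 25 low-complexity cells, 21 still lay under every other cell on this scale and 4 fell inside their range. One treated cell had 73805 reads and reached 5119 genes at 60000, near the middle of the other cells. Another treated cell, in contrast, had 711221 reads and only 1818.

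**Figure D1:**
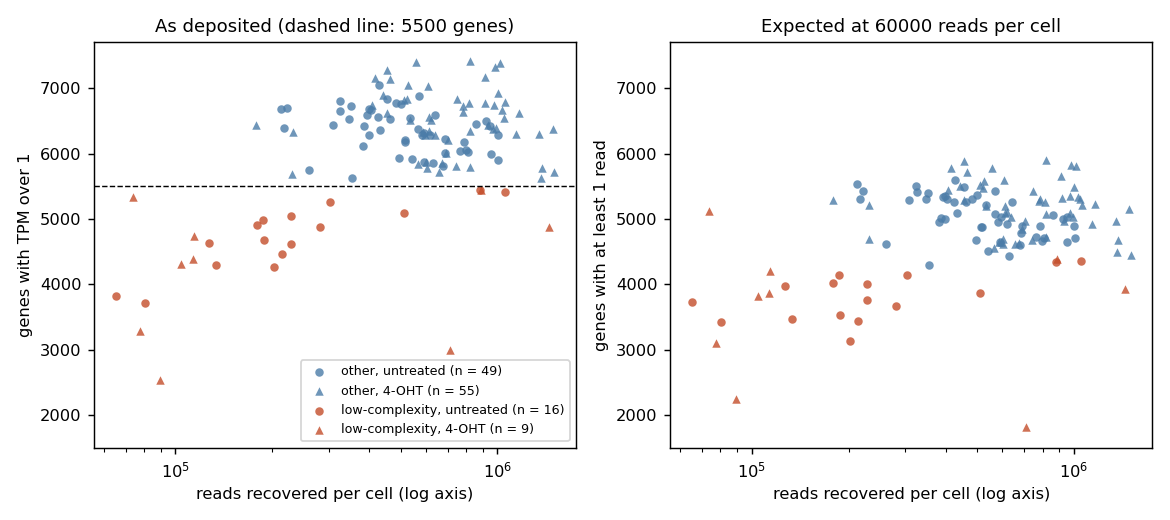
Genes per cell against the reads recovered per cell (log axis), as genes with TPM over 1 on the left and as genes expected with at least 1 read at 60000 reads on the right, for untreated (circles) and 4-OHT (triangles) cells. The 25 low-complexity cells (orange) lie mostly at low reads, and 21 of them remain below every other cell (blue) when the number of reads is made equal.

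The reads of low-complexity cells were gathered on fewer genes. The 10 most abundant genes of each cell took 16.4% of its TPM (median, 9.76 to 55.8%) in low-complexity cells and 13.8% (8.49 to 22.8%) in the others. Genes with a single read made up 17.5% of the detected genes (6.85 to 31.6%) against 8.304% (5.85 to 14.8%). Loss of detection reached well expressed genes. Of gene-cell pairs with a mean of 100 to 1000 TPM in the other cells, 72.3% were detected in untreated and 68.5% in treated low-complexity cells, where the other cells had 94.8 and 95.97%. Genes with a mean under 1 TPM in the other cells were detected about as often in both groups (10.97 against 10.2% untreated, 10.4 against 10.9% treated).

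**Figure D2:**
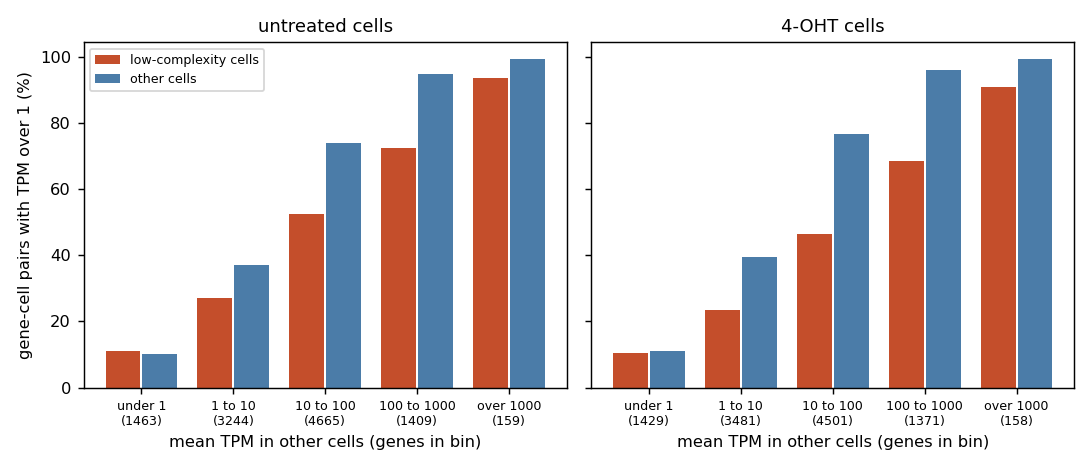
Share of gene-cell pairs with TPM over 1 (%), by the mean TPM of the gene in the other cells, for low-complexity (orange) and other (blue) cells of each treatment set, with the number of genes of each bin in brackets. Detection was lower in low-complexity cells in every bin from 1 TPM upwards. It was near equal under 1 TPM, where genes could be kept through their detection in low-complexity cells.

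All 25 cells carried the defining basal keratins. Krt14, the basal type I keratin, had 769 to 10790 TPM in untreated low-complexity cells (median 4332) and 63.7 to 16926 in treated ones (median 2765). The other cells had medians of 5230 and 5882, and the ranges overlapped. Krt5, its type II partner, was also above 1 TPM in 25 of 25 cells, with medians of 1635 untreated and 1323 treated against 1472 and 1478. The lowest treated Krt14 value, 63.7 TPM, lay below that of every treated other cell (302 or more). Detection of these keratins does not by itself settle the type of a cell. In the GHA501A series, the other co-culture, Krt14 was above 1 TPM in 44 of 67 untreated and 49 of 54 treated other cells, at medians of only 2.25 and 7.75 TPM.

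Genes were compared between low-complexity and other cells within each set, as the difference in log2(mean TPM + 1), and counted where it was at least 2-fold the same way in both sets. Of 10940 genes with TPM over 1 in more than 5 AG cells, 940 were higher (8.59% of the genes tested) and 1310 lower (12.0%). A further 948 genes were past 2-fold in opposite directions in the 2 sets. The median difference over all genes was −0.02 for untreated and −0.42 for treated cells. Rescaling cells by the median ratio over 2191 widely detected genes moved these medians by 0.60 and 0.55, to 0.59 and 0.13, and the counts to 2109 higher and 712 lower. Leaving out each low-complexity cell in turn, 1171 of the 1310 lower genes were called every time (89.4%), but only 216 of the 940 higher genes (22.98%).

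**Figure D3:**
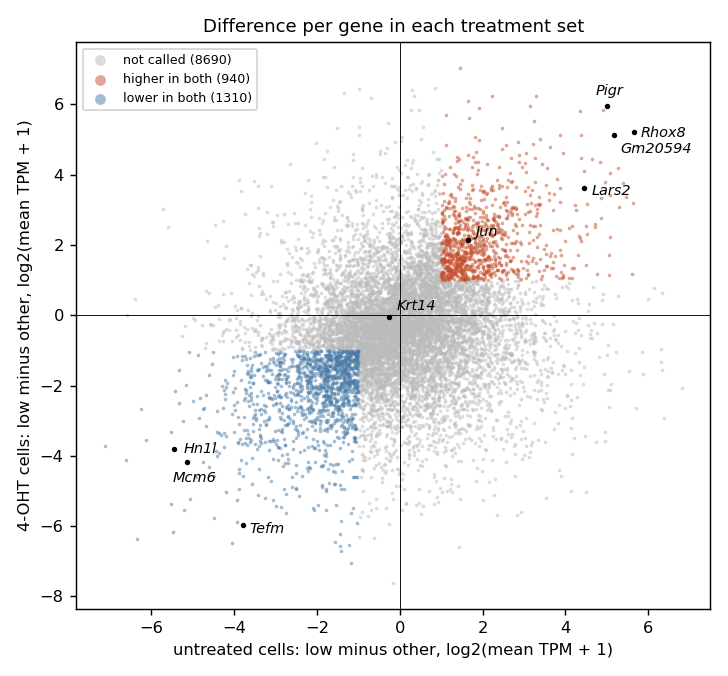
Difference between low-complexity and other cells in log2(mean TPM + 1) for each of 10940 genes, in the untreated set (horizontal) and the 4-OHT set (vertical), which share no cells. Genes at least 2-fold higher in both sets are orange (940) and lower in both blue (1310), and Gm20594, Rhox8 and Pigr lie at the upper right corner while Krt14 lies near 0.

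The gene with the most TPM among the most raised was Gm20594, a predicted gene of 1 exon (GRCm38, GENCODE release M21: chr6:79817916-79818364, plus strand). It had 813 to 327319 TPM in the untreated low-complexity cells (median 17233) and 375 to 232840 in the treated ones (median 36342). The other cells had medians of 914 and 1026 and never more than 9385. In 17 of 25 cells, 12 untreated and 5 treated, the value lay above every other cell. It made up 32.7% of TPM in the untreated cell and 23.3% in the treated cell where it was highest. The difference was 5.17 untreated and 5.14 treated on the log2 scale. It followed the reads within the low-complexity cells (Spearman's rho −0.79, n = 25) and not within the others (−0.04). The 6 low-complexity cells with over 500000 reads had 375 to 3919 TPM, within the range of the other cells.

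Gm20594 was searched for sequence shared with the mitochondrial ribosomal RNAs, which are abundant in cells and whose own levels were not analysed here. Of 10850 tested genes with GENCODE transcripts, it was the only one with a run of at least 25 bases identical to either of them, on either strand. The longest run is 65 bases, from base 368 of the 449-base Gm20594 transcript and base 1009 of mt-Rnr2, the large mitochondrial ribosomal RNA, in the same orientation. Stretches of 25 bases shared with mt-Rnr2 started at 61 positions of the transcript, more than that run alone holds. Compared base by base at the offset of the run, with no gaps allowed, 306 of 449 bases (68.2%) were identical. The first 30 bases of the run are shown because they stand in both transcripts:
Gm20594 and mt-Rnr2: tttaatcagtgaaattgacctttcagtgaa
Whether reads of the ribosomal RNA entered the Gm20594 value was not tested.

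Lars2, the mitochondrial leucyl-tRNA synthetase, was chosen for description after its values were seen. It ran from 332 to 27618 TPM in untreated low-complexity cells (median 1887) and from 140 to 6460 in treated ones (median 1167), against medians of 195 and 178. In 18 of 25 cells it lay above the highest other cell, at 867 TPM. Its differences were 4.46 and 3.63, and among low-complexity cells it ranked much as Gm20594 did (rho 0.86, n = 25). Among the other cells the 2 genes were unrelated (rho 0.06).

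Other raised genes ranked together across the low-complexity cells. They were not separate from Gm20594, which ranked with each of them there, from 0.45 for Klk14 over 0.715 for Pigr to 0.745 for Ccr4 (Spearman's rho, n = 25). Rhox8, a reproductive homeobox gene (chrX:37874778-37878944, minus strand), had a median of 283 TPM in untreated low-complexity cells and 1369 in treated ones, against 70.2 and 31.8. Pigr, the receptor that carries polymeric immunoglobulins across epithelia (chr1:130826684-130852249, plus strand), had medians of 533 and 1099 against 104.03 and 69.2. These levels overlapped those of the other cells. One untreated cell, library 61, held 159750 TPM of Rhox8 and 181405 of Pigr, and without it the untreated differences were 2.20 and 1.87 in place of 5.66 and 5.00. Treated library 77 had the highest treated values, 31671 and 74660.

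The ratio of Pigr to Rab3c, a GTPase of secretory vesicles, had a median of 9.64 in 17 low-complexity cells and 9.13 in 22 other cells (cells with Rab3c over 30 TPM), with ranges of 6.50 to 14.1 and 3.79 to 12.1. Across the 25 low-complexity cells Pigr ranked with Rab3c (rho 0.98), Rhox8 (0.96), Cplx2 (0.94, a complexin that binds vesicle fusion proteins), Mylk4 (0.93, a myosin light chain kinase), Ccr4 (0.92, a chemokine receptor), Fam124a (0.89), Klk14 (0.87, a kallikrein protease of skin) and Gcm1 (0.84, a placental transcription factor). In the other cells the rank correlations with Pigr were lower for each of these genes, from 0.95 for Rab3c and 0.82 for Rhox8 over 0.79 for Cplx2, 0.78 for Fam124a, 0.695 for Mylk4, 0.685 for Ccr4 and 0.62 for Klk14 to 0.40 for Gcm1. These correlations share the libraries and their depth. Together the 10 most raised genes took 3.14% of TPM in low-complexity cells (median, 0.07 to 49.9%) and 0.12% in the others (0.03 to 1.51%). With these genes removed and TPM rescaled, 1053 genes were higher and 1231 lower.

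**Figure D4:**
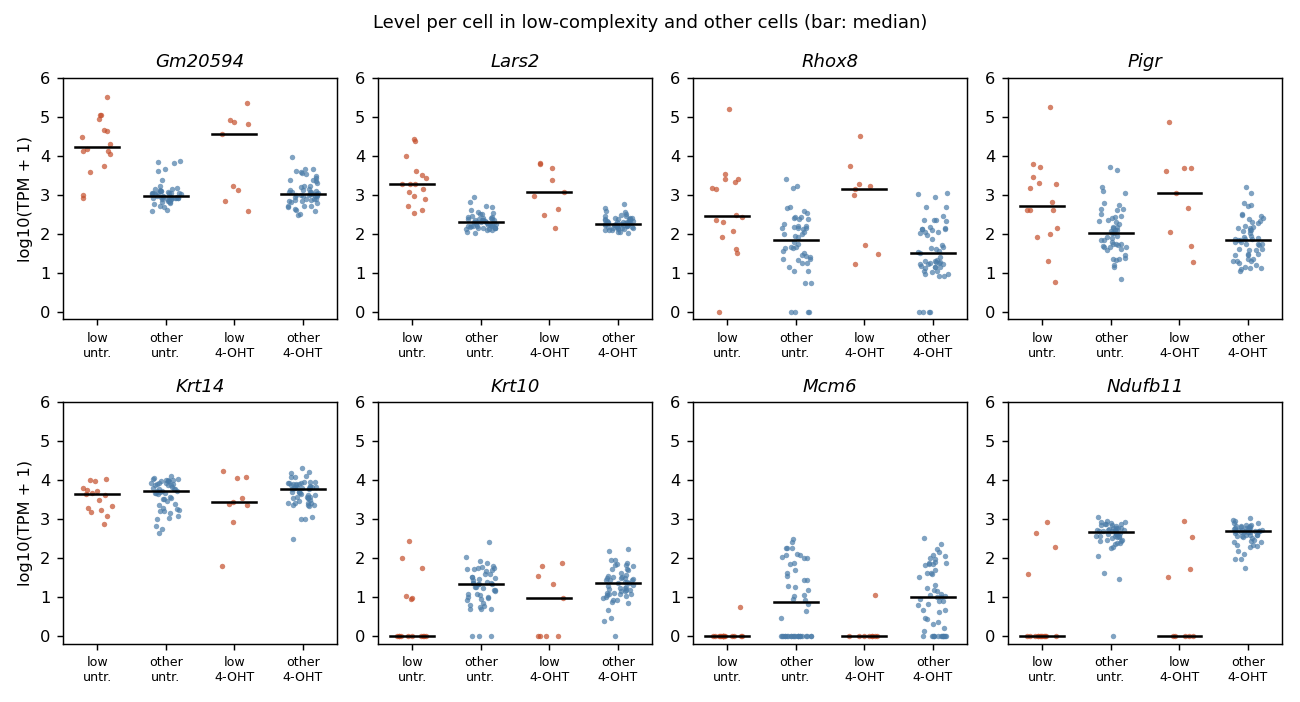
Level of 8 genes as log10(TPM + 1) in each cell, for low-complexity (orange) and other (blue) cells of the untreated (untr.) and 4-OHT sets, with the median of each group as a bar. Gm20594 and Lars2 were far higher in most low-complexity cells, Krt14 overlapped between groups, and Mcm6 and Ndufb11 were at 0 in most low-complexity cells.

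The most lowered genes were mostly at 0. Mcm6, a subunit of the replicative helicase (chr1:128331590-128359664, minus strand), was above 1 TPM in 2 of 25 low-complexity cells (8.0%, 0.98 to 26.03%), and in 28 of 50 untreated (56%, 41.3 to 70.01%) and 40 of 55 treated others (72.7%, 59.04 to 83.9%). Its differences were −5.14 and −4.17. Sdhaf3, an assembly factor of respiratory complex II, was found in 0 of 25 low-complexity cells and in 36 of 50 and 37 of 55 others. By the approximation of 3 divided by the number of cells, 0 of 25 allows a share of up to 12.0% with TPM over 1. This is not the exact interval used for other shares, and it does not limit the share that express the gene. Tefm, the mitochondrial transcription elongation factor, was found in 3 of 16 and 0 of 9 low-complexity cells, against 40 of 50 and 42 of 55. Further genes among the most lowered showed the same pattern. They were Zfp930 (a zinc finger gene), Hn1l, Stx18 (a syntaxin of the endoplasmic reticulum), Fbxl8 (an F-box gene), Gstm1 (a glutathione transferase) and Cyb561d2, each found in at most 3 cells of either low-complexity set.

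S-phase genes were lower as a group. Of 20 kept, 12 were at least 2-fold lower in both sets and 0 higher, beside 12.0% of all genes lower, with medians of −1.89 and −1.66. They included Mcm3 (−2.54 and −2.82), another helicase subunit, Cdt1 (−3.15 and −2.89), which loads the helicase, and Rrm2 (−3.44 and −2.53), a ribonucleotide reductase subunit. All 12 stayed lower whichever cell was left out, and the medians stayed below 0 after rescaling (−1.0 and −1.20). Of the 23 G2/M genes 8 were lower (34.8%, beside 12.0% of all genes), with medians of −1.27 and −0.47 that became −0.23 and 0.12 after rescaling, so that the direction turned in the treated set. Ccnb1, cyclin B1, was found in 3 of 16 and 4 of 9 cells, Bub1b, a spindle checkpoint kinase, in 6 of 16 and 3 of 9, and Aurka, a mitotic kinase, in 3 of 16 and 0 of 9. Cenpe, a kinetochore motor, was the 1 gene on that list counted as higher (1.49 and 1.33), and that call was lost when a single cell was left out. Top2a, a mitotic topoisomerase, was above 1 TPM in 15 of 25 low-complexity cells (60%), beside 34 of 50 and 29 of 55 others. Its medians were 4.23 untreated and 18.95 treated, against 5.43 and 1.94 TPM in the others. Detection at such levels does not by itself mark a cell as mitotic.

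Proteasome genes were lower as well. Of 37 subunits, 9 were lower in both sets (24.3%, beside 12.0% of all genes, with medians of −1.13 and −0.93 that stayed below 0 after rescaling, at −0.66 and −0.43), and all 9 stayed so with any cell left out. Psmb5, a catalytic subunit, had medians of 0 and 51.5 TPM in low-complexity cells against 706 and 558. Psmb11, the thymus form of that subunit, was the 1 higher member (1.44 and 2.51). For nuclear genes of mitochondrial function the result depended on the scale. The share of lower genes was near that of all genes, although single members were at 0 in many cells. With log2(TPM + 1) averaged over cells, however, the median differences were −3.12 and −3.02 for oxidative phosphorylation genes. Those of mitochondrial ribosomal protein genes were −2.82 and −2.77. On that scale S-phase genes had −1.23 and −1.31, and all genes −0.41 and −0.70. Of 75 oxidative phosphorylation genes 11 were lower (14.7%, beside 12.0% of all genes) and 0 higher, and the medians of −0.74 and −0.69 went to −0.04 and 0.01 after rescaling. Ndufb11, a complex I subunit, was found in 4 of 16 and 4 of 9 low-complexity cells but in 49 of 50 and 55 of 55 others. Ndufa8, also of complex I, was found in 3 of 16 and 3 of 9 cells against 49 of 50 and 55 of 55. Low-complexity cells had a median of 43 of these genes detected (23 to 73), and the others 72 (54 to 74). Of 76 mitochondrial ribosomal protein genes 13 were lower (17.1%), with medians of −0.82 and −1.01 that became −0.04 and −0.36 after rescaling, among them Mrpl4 (−2.66 and −2.68), Mrpl50 (−4.25 and −2.14) and Mrpl57 (−2.69 and −2.86).

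The direction of the cytosolic ribosomal proteins also depended on the scale. Of 78 genes 4 were lower (5.13%, beside 12.0% of all genes) and 0 higher. Among the lower ones, Fau had a median of 0 TPM in every AG group. Rps27a had 2.90 in the treated other cells and 0 in the rest. The medians of −0.86 and −0.25 turned to 0.07 and 1.43 after rescaling, and were −1.97 and −1.11 with log2(TPM + 1) averaged over cells. Their share of TPM was 5.98% in low-complexity cells (median, 1.87 to 21.25%) and 11.1% in the others (3.66 to 16.9%). Housekeeping genes behaved alike, with 0 of 16 counted in either direction and medians of −0.93 and −0.54 that became −0.08 and 0.77. Gapdh, the glycolytic dehydrogenase, had medians of 302 and 647 TPM against 1094 and 1246, and Actb, β-actin, 4757 and 5110 against 13025 and 8812. Of 14 glycolysis genes 2 were lower (14.3%, beside 12.0% of all genes). They were Hk2 (−1.35 and −1.56), a hexokinase, and Aldoa (−1.34 and −1.18), an aldolase with medians of no more than 2.59 TPM in every AG group.

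**Figure D5:**
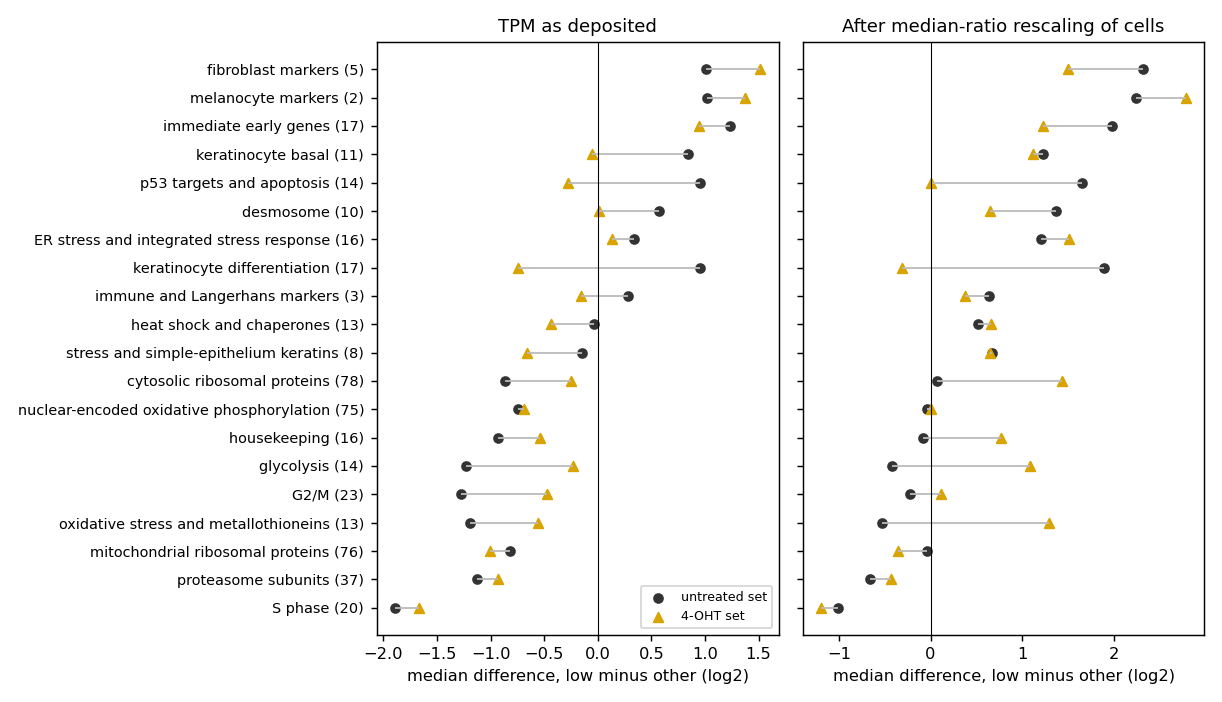
Median difference between low-complexity and other cells (log2) for each gene list, with the number of genes kept in brackets, in the untreated (circles) and 4-OHT (triangles) sets, from TPM as deposited (left) and after median-ratio rescaling of cells (right). S-phase and proteasome genes stay below 0 on both scales, immediate early genes stay above 0, and the differentiation list has opposite signs in the 2 sets.

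For stress, the immediate early genes were the list with the most higher members. Of 17 kept, 4 were higher (Jun, Junb, Jund and Egr2), beside 8.59% of all genes higher, and 0 lower, with medians of 1.23 and 0.95. When log2(TPM + 1) was averaged over cells, these medians were 0.26 and −0.72, so the direction turned in the treated set. Jun, an AP-1 subunit, ran from 75.5 to 3308 TPM in untreated and from 60.2 to 1640 in treated low-complexity cells (medians 303 and 451 against 151.99 and 96.1), and its call held with any cell left out. The calls for Jund (3.04 and 1.54), another AP-1 subunit, and Egr2 (1.24 and 1.22), a zinc finger factor, did not. Fos, the AP-1 partner of Jun, overlapped between groups, with medians of 338 and 370 against 259 and 291.

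Other stress lists did not share a direction. None of 13 heat shock genes was higher, and 1 was lower (7.69%, beside 12.0% of all genes). This was Hspd1, the mitochondrial chaperonin (−1.74 in both sets). Of 16 genes of the unfolded protein and integrated stress responses 2 were higher (12.5%, beside 8.59% of all genes) and 1 lower (6.25%). Ddit3 (CHOP, 2.16 and 1.64) and Trib3 (2.57 and 1.22), its target, lost their calls when a single cell was left out, and Trib3 was found in 5 of 16 and 1 of 9 low-complexity cells. Sdf2l1, a chaperone cofactor, was lower (−3.50 and −2.69). Of 14 p53 targets and apoptosis genes 2 were higher (14.3%, beside 8.59% of all genes) and 1 lower (7.14%, beside 12.0%). Tnfrsf10b, a death receptor, was higher with any cell left out (1.15 and 1.74). Mdm2, the p53 ligase, was higher (1.16 and 1.03) until a cell was left out, and Bax, a pro-apoptotic factor, was lower (−2.49 and −1.08) on the same terms. Cdkn1a, the cell cycle inhibitor p21, had differences of −0.86 and 1.31. Of 13 oxidative stress genes 1 was lower (7.69%, beside 12.0% of all genes) and 0 higher. The lower gene was Sod2, the mitochondrial superoxide dismutase (−1.32 and −2.04). Mt2, a metallothionein, had medians of 75.8 untreated and 991 treated against 194 and 328. None of 8 stress keratins was counted in either direction.

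Differentiation genes did not point one way. Of 17 kept, 4 were lower in both sets (23.5%, beside 12.0% of all genes) and 2 were higher (11.8%, beside 8.59% of all genes). The medians were 0.95 untreated and −0.75 treated. The lower genes were Krtdap, Sbsn, Ovol1 and Mxd1, and they stayed lower with any cell left out. Krtdap, a secreted product of suprabasal cells, was found in 1 of 16 and 0 of 9 low-complexity cells against 12 of 50 and 13 of 55, Sbsn in 0 of 25 against 6 of 50 and 12 of 55, and Ovol1, an epithelial transcription factor, in 2 of 16 and 1 of 9 against 21 of 50 and 31 of 55. Ppl, a cornified envelope and desmosome plakin (3.65 and 1.34), and Grhl3, a barrier transcription factor (1.09 and 1.36), were higher but lost the call when a single cell was left out. Krt10, the suprabasal keratin, was above 1 TPM in 11 of 25 low-complexity cells (44%, 24.4 to 65.1%) and in 47 of 50 and 54 of 55 others (94% and 98.2%). Its highest low-complexity values were 280 and 76.2 TPM, those of the other cells 262 and 175.3, and the differences of the means were −0.07 and −0.47.

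Adhesion genes were spread more widely. Itgb1, the β1 integrin, was found in 24 of 25 low-complexity cells, with differences of 1.15 untreated and −0.19 treated. Of 11 basal genes kept 1 was higher (9.09%, beside 8.59% of all genes). This was Cdh3 (P-cadherin, 1.46 and 2.57), found in only 3 of 16 and 1 of 9 cells. Of 10 desmosome genes 1 was higher (10%), Dsc2 (desmocollin 2, 2.68 and 4.47), where 1 treated cell reached 3916 TPM. Both calls were lost when a cell was left out.

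Markers of other cell types were present at different levels, and a few were higher in the low-complexity cells. Of the 14 fibroblast markers 9 were in the table and 5 passed the filter. Of these 5, 3 were higher (60%, beside 8.59% of all genes, with medians of 1.01 and 1.52). The summed level of the 9 was 3.05 to 544 TPM in untreated and 7.71 to 113.8 in treated low-complexity cells, against 0 to 251 and 0.31 to 334 in the others (medians 24.5 and 22.2 against 4.08 and 3.48), and Col6a3 and Postn were at 0 in all 25. Col1a1, a type I collagen chain, was above 1 TPM in 7 of 25 low-complexity cells (28%) and 19 of 50 and 18 of 55 others. The highest sum belonged to library 61, the cell with the most Rhox8 and Pigr. Prrx1, a mesenchymal homeobox gene, was higher with any cell left out (1.76 and 2.58), while the calls of Col3a1 (2.13 and 2.70) and Twist2 (1.01 and 1.52) were not kept. Of the melanocyte genes Tyr, tyrosinase, was above 1 TPM in all 130 cells and higher in the low-complexity ones (1.57 and 1.30) until a cell was left out. Pmel, a melanosome protein, was found in 11 of 16 and 6 of 9 low-complexity cells (up to 224 TPM) and in 34 of 50 and 47 of 55 others (up to 314), and Mlana and Mitf were at 0 in all 25. Of the 11 immune and Langerhans markers 4 were in the table, and their summed level had medians of 636 and 278 TPM in low-complexity cells (0 to 7939) against 622 and 467 in the others (15.3 to 5058). Epcam, an adhesion molecule that epithelial cells also make, had the highest value (7939 TPM) and was found in 16 of 16 and 8 of 9 low-complexity cells. Lyz2, a lysozyme of myeloid cells, was found in 8 of 16 and 4 of 9 (up to 1488 TPM) against 37 of 50 and 45 of 55 (up to 2414). H2-Ab1 and Fcer1g were at 0 in all 25, and the endothelial markers Kdr and Tek were found in at most 1 cell of each low-complexity set. The part of these values in the results was not tested.

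Called genes differed in length and type. Exonic length had a median of 4604 bases for the higher genes, 3098 for the lower ones and 4241 for all genes tested. Genes with a single exon made up 6.85% of the higher, 3.23% of the lower and 2.995% of all genes. Olfactory, vomeronasal and taste receptors, looked at after the values were seen, were 12 of 940 higher genes (1.28%) and 1 of 1310 lower ones (0.08%), against 33 of 10940 (0.30%). Higher genes were detected about as often in low-complexity as in other cells (56.3 and 58.6% of gene-cell pairs), whereas lower genes were detected in 24.8 and 56.4%. Over all genes tested the shares were 40.9 and 58.3%. Cells and genes were chosen on the same values, so this contrast is no separate finding about the called genes.

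Cells of similar depth were also set side by side. The genes were picked on the same cells, and only the total of reads was matched, as a range, so these values are no separate evidence. Among cells with 178295 to 310000 reads (9 low-complexity cells, all untreated, and 8 others, of which 5 were untreated), Gm20594 had 5463 to 88066 TPM in the first and 480 to 7307 in the second, and Lars2 499 to 10110 against 140 to 635. Ndufb11 was found in 1 of 9 against 8 of 8 cells, Mcm6 in 0 of 9 against 4 of 8 and Hn1l in 0 of 9 against 7 of 8. Gapdh ran from 114.75 to 596 TPM against 659 to 1803, with no overlap. Krt14 overlapped, at 769 to 10790 against 1680 to 13082. Jun had medians of 788 and 124 TPM.

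The 6 low-complexity cells with over 500000 reads differed from the shallow ones in the medians below, while the ranges overlapped. They had a median of 71 oxidative phosphorylation genes detected (35 to 73), against 36 (23 to 68) in the 10 cells below every other cell. Their Gapdh had a median of 1189 TPM (209 to 2977), against 459 (59.2 to 1967). Krt10 was detected in all 6, at 7.95 to 102.7 TPM. Mcm6 stayed at or near 0, at no more than 4.42 TPM.

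The same threshold was applied to the 140 cells of the GHA501A series, the other co-culture, which the selection did not use. It took 4 of 71 untreated (5.63%, 1.56 to 13.8%) and 15 of 69 treated cells (21.7%, 12.7 to 33.3%). Mcm6 was lower there too (−3.47 and −2.47), but 8 of the 10 most raised genes had the opposite sign in both sets, among them Rhox8 (−1.89 and −2.36) and Pigr (−1.93 and −1.59). Of these 8, Rab3c, Cplx2, Fam124a, Mylk4 and Ccr4 had medians of at most 2.47 TPM in the other cells of that series. Their signs therefore rest on low levels, and the untreated side on only 4 cells under the threshold. Gm20594 had a median of 0 TPM in all 4 groups of that series, Ndufb11 differences were 0.33 and 0.21, and those of Lars2 −0.47 and 0.16. Krt14 had medians of only 2.25 and 7.75 TPM in the other cells of that series. Col1a1 had medians of 1118 and 898 TPM in the same cells, against 0 in both sets of AG other cells. Aldoa had 685 and 859 there against 2.24 and 2.59, and the ribosomal protein gene Fau 1071 and 1112 against 0 in both sets. The 2 series thus differ in more than the threshold, and their differences cannot be compared like for like.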

How the data were processed

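Single-cell RNA libraries were made on C1 chips. Per the study's methods, the authors used Cutadapt, TopHat (GRCm38, reads with several positions removed) and featureCounts, and the values they deposited are TPM. They state filters of over 200000 aligned reads, under 2% ribosomal reads and over 2000 expressed genes. Recovered totals count reads in the deposited genes only, and were under 200000 in 14 AG cells, 13 of them low-complexity. Of 294 columns, 16 fit no label and stayed out, and 8 cells whose name and treatment label conflict entered only as alternatives. The table has 14145 genes, and mitochondrially encoded and nuclear-retained genes were not analysed here.

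Reads were recovered from exact TPM ratios, and genes at 60000 reads by the hypergeometric expectation. Steps were tested on simulated data (scipy 1.17.1, numpy 2.4.6, pandas 2.3.3, matplotlib 3.10.9). Genes named are the 10 most raised and 10 most lowered (the smaller of both differences, detected in at least 50% of the low-complexity or other cells of each set), up to 3 of each list in each direction, and 13 set genes, of which Malat1 and mt-Co1 were not analysed here. One of the most lowered genes is not reported here. Other genes named were chosen after their values were seen, among them Lars2. S6 kinases and a binding protein caught by the ribosomal symbol pattern were dropped. Members and lists were chosen with earlier results of these data known. Other pseudocounts, filters, thresholds, scalings and cell sets were tried.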

Additional observations from a re-analysis of the deposited data

Results flagged for a closer look

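Among the 9 treated low-complexity cells, 1 stood apart in its share of Gm20594, at 23.3% of TPM. The rule set the gap to the next value against the range of the 9 cells. It picks out about 1 in 20 such groups by chance where values are normally distributed. This share was skewed (0.04 to 23.3%, median 3.63%), so that rate need not hold here. In all, 7 measures were looked at.

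Several differences between low-complexity and other cells had opposite signs in the 2 treatment sets. None of these was tested. Treated minus untreated, the median difference was −0.90 for basal keratinocyte genes, −1.70 for differentiation genes, −0.44 for immune and Langerhans markers and −1.23 for p53 targets. For single genes it was −1.35 for Itgb1, −3.31 for Col1a1, 2.17 for Cdkn1a and −2.04 for Top2a.

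The GHA501A series went the other way in its share of cells under 5500 genes, which was 16.1 percentage points higher in the treated set. Its mean difference over both sets was −2.12 for Rhox8, −1.76 for Pigr, −0.92 for Rab3c, −0.60 for Cplx2, −0.93 for Fam124a, −0.33 for Mylk4, −1.10 for Klk14 and −0.70 for Ccr4, all raised in the AG low-complexity cells, and 0.41 for Gstm1, lowered there. Rab3c, Cplx2, Fam124a, Mylk4 and Ccr4 had medians of at most 2.47 TPM in the other GHA501A cells, so their signs rest on low levels. These differences between series were not tested, and the series are not alike in other genes, as described above.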

How the results depend on the processing

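The number of genes called depends on how levels are averaged and scaled. With the mean of log2(TPM + 1) there were 120 higher and 2817 lower genes, with group medians, an alternative chosen after seeing the data, 212 and 3135, and with median-ratio rescaling 2109 and 712. The untreated set alone gave 2771 higher and 2660 lower, the treated set alone 2023 and 3687. The number of lower genes was 2117 at a threshold of 5000 genes and 353 at 6000. A pseudocount of 0.1, both filters, genes counted at TPM over 0, the 8 conflicting cells and, chosen after seeing the data, leaving out cells with over 500000 reads or the 10 most raised genes kept both counts within 1.5 times. Leaving out 1 low-complexity cell at a time gave 791 to 981 higher and 1262 to 1449 lower genes. The 20 most raised and lowered genes kept their direction in both sets in 248 of 250 values under alternatives. They were picked from the same cells for large differences of the same sign in both sets, so this is no separate evidence. The share of low-complexity cells, treated minus untreated, was −10.2 percentage points, −5.73 at a threshold of 5000, −6.63 at 6000, −18.9 among library numbers up to 96, and 1.53 among those from 97, where it reversed. The cause of these shifts was not tested. No paired analysis was possible because the values come from no test. Removing mitochondrially encoded genes was not run, as none were analysed here. Values under a few TPM rest on 1 or 2 reads in shallow cells.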

Other observations

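Of the 8 AG cells whose library name and treatment label conflict, 2 had fewer than 5500 genes (25%, exact 95% interval 3.19 to 65.1%).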
